A study of Mus musculus with 14 samples.

Results

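The genes described here encode the proteins that bind and receive insulin-like growth factors (IGFs). They are the binding-protein genes *Igfbp2*, *Igfbp3*, *Igfbp4*, *Igfbp5*, *Igfbp6* and *Igfbp7* and the receptor genes *Igf1r* and *Igf2r*, 8 of the 54332 genes in the time-course table. The family was taken by name and was chosen by the TPM of *Igfbp3*, whose fall between D0 and W2 was the largest of all genes tested. Its D0 and W2 values are therefore given below as a description, without a test. All 8 genes had a row in the table. A mean of at least 1 TPM, the share of transcripts after correction for length, over the 10 libraries was the minimum for testing, which 7 of the 8 reached and *Igfbp5* did not.

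IGF1 and IGF2 are secreted growth factors that signal through the IGF1 receptor, a tyrosine kinase that feeds the PI3K–AKT–mTOR and MAPK pathways. IGF-binding proteins hold IGFs outside the cell, prolong their life and, depending on the setting, keep them from the receptor or deliver them to it, and proteases release the IGF by cutting the binding protein. IGF2R, also the receptor for mannose-6-phosphate, carries lysosomal enzymes and takes up IGF2 for degradation without a kinase of its own. In skin, IGF1 is made largely by dermal fibroblasts, and basal keratinocytes carry its receptor.

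RNA was measured by RNA-seq in EpdSCs, the epidermal stem cells, sorted from the back skin of CD1 mice that carried K14rtTA and TRE-myc-Sox9. In these mice a keratin 14 promoter drives the doxycycline (DOX)-dependent activator, which switches on MYC-tagged *Sox9* wherever that promoter is active. D0 mice were taken at P21 with no time on DOX, W1 at P28, W2 at P35 and W6 at P63, each with 2 biological replicates, and all mice are labelled male. The 2 W12 libraries came from newborn back-skin epidermis of the same genotype that had been grafted onto female immunocompromised Nude hosts aged 6 to 8 weeks, left to heal and then induced, so host cells can enter the graft. The sort took cells negative for CD31, CD45, CD117, CD140a and CD34 and high for CD49f and Ly6A. Every group, D0 included, carried both transgenes. No library of uninduced mice at the later ages was analysed here, so time on DOX cannot be told apart from age up to W6, nor from age, grafting and host at W12. Whether a library pooled several mice is not given in the sources used here.

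Each library's TPM summed to 1000000, which leaves the depth per library unknown. The induced MYC–SOX9 transcript was at 89.6 and 45.6 TPM at D0 and between 606 and 3414 TPM in the 8 libraries on DOX. *Krt14*, which marks basal keratinocytes, was at 20000 TPM or more in every library, but 5 of the 8 basal markers were called lower at W12 than at D0 and 1 higher, beside 25.1% and 17.9% of all genes tested. Of these, *Krt15*, a keratin of basal stem cells, held 11240 and 11930 TPM before induction but only 322 and 242 TPM in the grafts, and *Ly6a*, which encodes the Ly6A of the sort, was the one called higher. The library labelled D0 replicate 2 went against its male label, its TPM being 4.61 for *Xist* of the X chromosome and 0.0279 for *Ddx3y* of the Y chromosome, where D0 replicate 1 had 0.00103 and 32.1 TPM. Both W12 libraries, labelled male and grown on female hosts, held transcripts of both genes, with *Xist* at 5.51 and 3.50 TPM and *Ddx3y* at 11.0 and 12.9 TPM. The 8 endothelial markers summed to between 1.20 and 5.86 TPM in the libraries up to W6 and to 106.9 and 242.1 TPM at W12. The list of 10 stress and immediate-early genes, *Fos* and *Jun* among them, summed to 28102 and 44134 TPM at D0 and to between 5060 and 11992 TPM later, and 8 of the 10 were lower than at D0 at W1, at W6 and at W12, beside 4.10%, 14.1% and 25.1% of all genes tested. The 6 hair follicle stem cell markers, mostly *Krt79*, summed to 353 and 181 TPM at D0 and 2108 and 2711 TPM at W1. Their sums were 2914 and 3738 TPM at W2, 6469 and 2415 TPM at W6, and 358 and 577 TPM at W12. At W1 against D0, 2 of the 5 tested were called higher and 0 lower, beside 5.79% and 4.10% of all genes tested. These values move with one or more of the comparisons below, and their part in the results was not tested.

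On GRCm38 with GENCODE M21, *Igfbp2* lies at chr1:72824503-72852474 on the + strand and *Igfbp5* at chr1:72857932-72874884 on the − strand, with 5457 bases between them. *Igfbp3* lies at chr11:7206086-7213923 on the − strand, 3539 bases from *Igfbp1*, the liver-expressed binding-protein gene, which was listed at 0 TPM in all 10 libraries. *Igfbp4* lies at chr11:99041244-99054392 on the + strand and *Igfbp6* at chr15:102144362-102149511 on the + strand. *Igfbp7* lies at chr5:77349240-77408041 on the − strand and overlaps *Polr2b*, a subunit of RNA polymerase II, on the + strand. *Igf1r* spans chr7:67952827-68233668 on the + strand. *Igf2r* spans chr17:12682406-12769664 on the − strand and overlaps *Airn*, an antisense RNA. Whether reads were assigned by strand is not given in the sources used here, so reads of *Igf2r* and *Airn*, or of *Igfbp7* and *Polr2b*, may not have been kept apart where they overlap.

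The 250 bases upstream of the RefSeq start on GRCm38.p6 are shown for *Igfbp3*, which fell most at W2, and for *Igfbp2*, *Igfbp6* and *Igfbp7*, which were higher at W6 and at W12 than at W1. They are written 5′ to 3′ on the strand of the gene. The windows are chr11:7213924-7214173 (− strand) for *Igfbp3*, chr1:72824230-72824479 (+ strand) for *Igfbp2*, chr15:102143936-102144185 (+ strand) for *Igfbp6* and chr5:77408046-77408295 (− strand) for *Igfbp7*. Capitals mark matches, on either strand, to the motifs described after the sequences.
Igfbp3: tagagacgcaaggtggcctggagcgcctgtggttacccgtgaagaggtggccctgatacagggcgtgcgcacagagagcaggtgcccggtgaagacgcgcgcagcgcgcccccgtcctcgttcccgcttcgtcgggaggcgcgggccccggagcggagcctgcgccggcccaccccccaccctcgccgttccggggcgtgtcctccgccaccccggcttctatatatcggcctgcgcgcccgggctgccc
Igfbp2: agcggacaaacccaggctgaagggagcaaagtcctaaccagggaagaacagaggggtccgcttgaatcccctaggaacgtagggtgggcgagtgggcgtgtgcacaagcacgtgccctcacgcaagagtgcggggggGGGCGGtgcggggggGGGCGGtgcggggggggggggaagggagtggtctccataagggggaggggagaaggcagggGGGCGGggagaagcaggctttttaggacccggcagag
Igfbp6: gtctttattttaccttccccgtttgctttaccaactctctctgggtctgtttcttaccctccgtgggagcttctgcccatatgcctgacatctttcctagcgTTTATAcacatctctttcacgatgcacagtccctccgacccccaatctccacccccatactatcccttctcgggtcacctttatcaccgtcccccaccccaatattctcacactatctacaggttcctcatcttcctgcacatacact
Igfbp7: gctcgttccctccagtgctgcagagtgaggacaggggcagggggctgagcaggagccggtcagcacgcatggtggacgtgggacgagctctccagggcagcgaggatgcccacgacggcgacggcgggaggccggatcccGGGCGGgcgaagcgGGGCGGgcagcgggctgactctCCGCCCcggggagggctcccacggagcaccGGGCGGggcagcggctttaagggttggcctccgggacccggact

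All 8 members had a RefSeq promoter. The motifs searched on both strands were the SOX core ACAAT, the AP-1 site TGANTCA, the GC box GGGCGG and the TATA box TATAAA, none of which contains another. No member's window held the SOX core or the AP-1 site, which occur in 27.7% and 6.75% of the 32851 RefSeq promoter windows of this length. The GC box, found in 32.7% of windows, had 3 matches upstream of *Igfbp2*, 4 upstream of *Igfbp7*, 3 upstream of *Igf2r* and 2 upstream of *Igf1r*. The TATA box, found in 12.4% of windows, had 1 match upstream of *Igfbp4*, at 28 bases from the start, and 1 upstream of *Igfbp6*, at 148 bases and on the other strand. Only the exact letters TATAAA were searched, so TATA-like stretches, such as the tatatat in the *Igfbp3* window, were not counted. GC content was 67.2% for *Igfbp2*, 73.2% for *Igfbp3*, 74.0% for *Igfbp7* and 49.6% for *Igfbp6*, against a median of 52.4% over all windows. The promoters of *Igfbp2*, *Igfbp6* and *Igfbp7* thus differed in these letters. The RefSeq start of *Igfbp6* lies 176 bases from the GENCODE start, and that of *Igf1r* 570 bases, so their windows and matches depend on which start is used. *Igfbp2* has 2 RefSeq starts, and the one nearest to the GENCODE start was taken.

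*Igfbp3* encodes the main carrier of IGF in the circulation and is also made by epidermal keratinocytes. It was at 551 and 595 TPM in the 2 D0 libraries, 2.22 and 1.01 TPM at W1, 1.64 and 0.812 TPM at W2, 1.32 and 21.8 TPM at W6, and 81.2 and 76.8 TPM at W12. The D0 libraries thus lay far above all others, W1 and W2 overlapped each other, and the W6 libraries were apart, with replicate 1 among the W1 and W2 values and replicate 2 well above them. The mean TPM at W2 was 468-fold lower than at D0, a log2 difference of −8.04 on the log2(TPM + 1) scale. The next largest falls of all genes tested were −6.68 for *Ndufs5-ps*, a pseudogene, and −5.06 for *Il12rb2*, a subunit of the interleukin-12 receptor. At W1, 1 week earlier, the mean was already 354-fold lower than at D0. At W12 it was 7.25-fold lower than at D0, with separate ranges. In these sorted populations, fewer cells of a type and less RNA per cell cannot be told apart.

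The later levels of *Igfbp3* were compared between timepoints that did not choose it. The spread in the fit still came from all 10 libraries, D0 and W2 included. *Igfbp3* was higher at W12 than at W1, by 4.97 on the log2(TPM + 1) scale (SE 0.83, limma adjusted *P* = 0.00174, n = 2 libraries a timepoint). It was higher at W12 than at W6 by 3.46 (SE 0.83, adjusted *P* = 0.0220). With only the libraries compared, *Igfbp3* kept the call against W1 but not that against W6 (SE 0.98, adjusted *P* = 0.0852). From W1 to W6 its log2 change was 1.51 (SE 0.83), which did not pass (adjusted *P* = 0.211). That value rested on the 2 unlike W6 libraries. Without W6 replicate 1 it was 3.16 (adjusted *P* = 0.00194), and without W6 replicate 2 it was −0.13 (adjusted *P* = 0.802). W6 replicate 2 also had *Dcn*, a fibroblast marker, at 51.2 TPM, where W6 replicate 1 had 1.46 TPM. Of the 8 fibroblast markers, 7 were higher in W6 replicate 2, as *Igfbp3* was, among them *Col1a2* at 0.0548 and 0.550 TPM and *Pdgfra*, which encodes the CD140a that the sort excluded, at 0.0393 and 0.161 TPM, while *Fbln1* was at 120 and 67.1 TPM. *Dcn* was at 13.2 and 27.2 TPM at W12 and at most 2.06 TPM up to W2. The list summed to 121.8 and 119.4 TPM at W6, mostly *Fbln1*, and to between 11.3 and 90.1 TPM in the other libraries. The part of such cells in the level of *Igfbp3* was not tested.

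**Figure D1:**
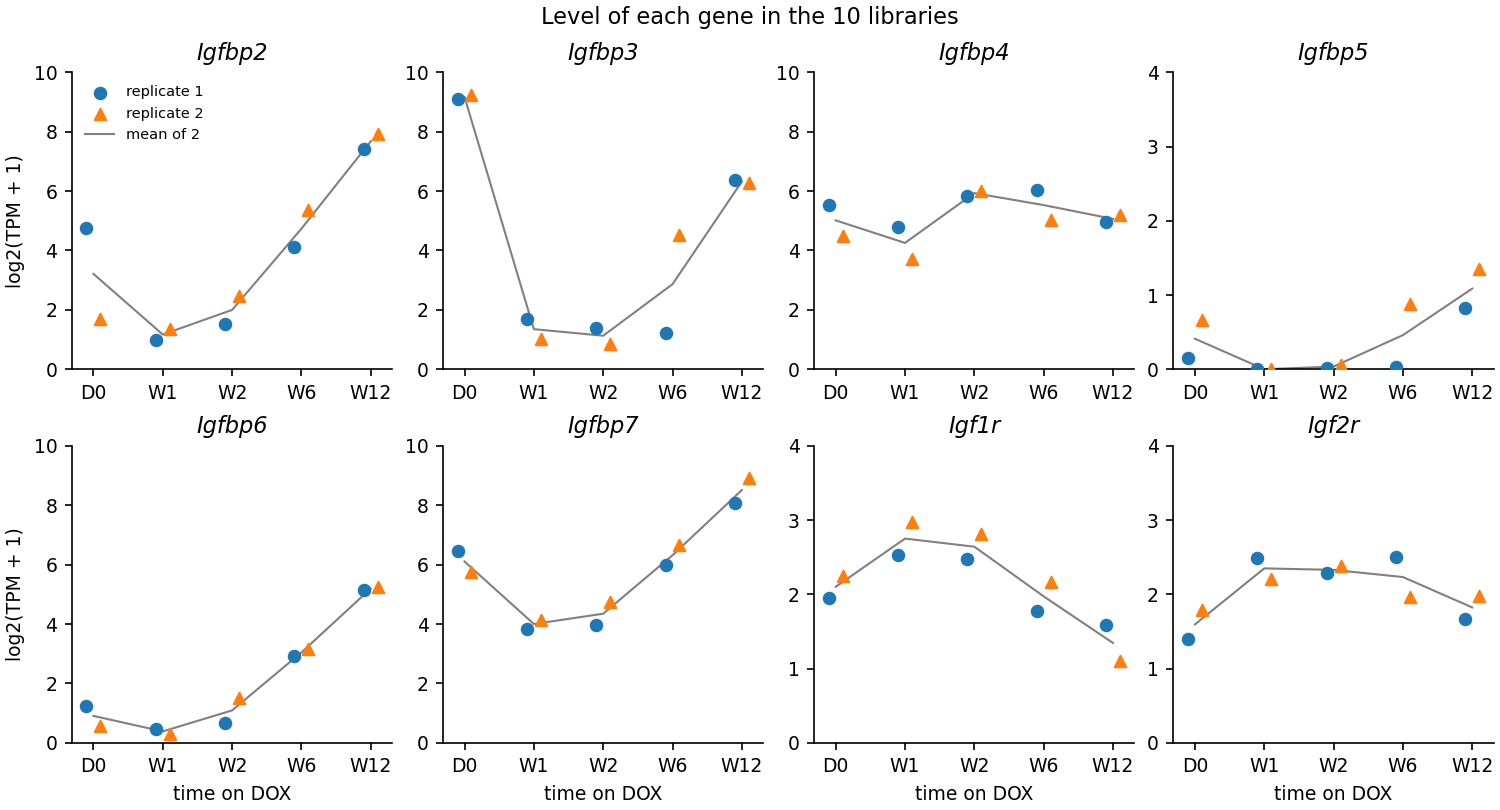
Level of each of the 8 genes as log2(TPM + 1) (vertical axis) against time on DOX (horizontal axis), with circles for replicate 1, triangles for replicate 2 and a line through the mean of the 2. The axis runs to 10 for the binding-protein genes except *Igfbp5* and to 4 for *Igfbp5* and the receptors. *Igfbp3* drops from above 9 at D0 to below 2 at W1, while *Igfbp2*, *Igfbp6* and *Igfbp7* have their lowest mean at W1 and their highest at W12.

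*Igfbp2*, *Igfbp6* and *Igfbp7* each had the lowest mean at W1 and the highest at W12. Only *Igfbp7* was called lower at W1 than at D0, as given below. *Igfbp2*, whose product binds IGF2 with high affinity and carries an integrin-binding motif, was at 25.8 and 2.21 TPM at D0, 0.996 and 1.53 TPM at W1, 1.90 and 4.49 TPM at W2, 16.3 and 39.7 TPM at W6, and 171 and 241 TPM at W12. Both W12 libraries lay above all others, and the D0 libraries were far apart, with replicate 1 within the range of W6 and replicate 2 within that of W2. *Igfbp6*, whose product prefers IGF2 over IGF1, was at 1.37 and 0.482 TPM at D0, 0.379 and 0.236 TPM at W1, 0.586 and 1.86 TPM at W2, 6.66 and 7.85 TPM at W6, and 34.0 and 37.2 TPM at W12. The W6 and W12 libraries stood apart from each other and from all earlier ones, and the 2 replicates lay close at both times. *Igfbp7*, which encodes a secreted matrix protein with low affinity for IGFs that is also made by blood vessels, was at 87.6 and 52.4 TPM at D0, 13.4 and 16.8 TPM at W1, 14.5 and 25.7 TPM at W2, 62.0 and 99.9 TPM at W6, and 271 and 488 TPM at W12. Its W1 and W2 libraries were below D0, its W6 libraries overlapped D0, and its W12 libraries exceeded all others.

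At W1 against D0, *Igfbp7* was lower by 2.10 on the log2(TPM + 1) scale (log2 change −2.10, SE 0.39, adjusted *P* = 0.0118). It was the only call among the 6 members tested, beside 9.89% of all genes tested called in this comparison, so the count is near that of genes at large. *Igfbp2* had a log2 change of −2.04 (SE 0.85, adjusted *P* = 0.172) and *Igfbp6* one of −0.52 (SE 0.32, adjusted *P* = 0.350). The value for *Igfbp2* turned on the D0 libraries, at −3.57 (adjusted *P* = 0.0107) without D0 replicate 2 and −0.52 (adjusted *P* = 0.597) without D0 replicate 1. Without D0 replicate 2, that of *Igfbp7* was −2.47 (adjusted *P* = 0.0195). The call for *Igfbp7* was lost without W1 replicate 1 (adjusted *P* = 0.0787) and without W1 replicate 2 (adjusted *P* = 0.0628). At W2, the log2 differences from D0, given without a test, were −1.76 for *Igfbp7*, −1.22 for *Igfbp2* and 0.18 for *Igfbp6*.

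At W6 against D0, *Igfbp6* was higher by 2.13 (SE 0.32, adjusted *P* = 0.00196). It was again the only call among 6 members, beside 32.4% of all genes tested. *Igfbp7* had a change of 0.21 (SE 0.39, adjusted *P* = 0.704) and *Igfbp2* one of 1.52 (SE 0.85, adjusted *P* = 0.198). The value for *Igfbp2* turned on which D0 library was used, at 3.05 (adjusted *P* = 0.00475) without D0 replicate 1 and −0.01 (adjusted *P* = 0.994) without D0 replicate 2. Against W1, all 3 were higher at W6, *Igfbp2* by 3.56 (SE 0.85, adjusted *P* = 0.0193), *Igfbp6* by 2.66 (SE 0.32, adjusted *P* = 0.00151) and *Igfbp7* by 2.32 (SE 0.39, adjusted *P* = 0.00582). They were the 3 calls among the 7 members tested, beside 22.9% of all genes tested and 10.6% called higher. The endothelial sum was also higher at W6, at 3.58 and 5.86 TPM against 1.20 and 2.03 TPM at W1, and its part in these changes was not tested. The call for *Igfbp2* was lost without W6 replicate 2 (adjusted *P* = 0.0977), without either W1 library (adjusted *P* = 0.0998 and 0.0834) and with no minimum level (adjusted *P* = 0.0905).

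At W12 all 3 genes were higher than at D0. The log2 changes were 4.46 for *Igfbp2* (SE 0.85, adjusted *P* = 0.00363), 4.29 for *Igfbp6* (SE 0.32, adjusted *P* = 3.90e-05) and 2.41 for *Igfbp7* (SE 0.39, adjusted *P* = 0.00176). In mean TPM, *Igfbp7* was 5.42-fold higher. Those 3 were the calls among 6 members, beside 43.0% of all genes tested, a share near theirs, and 17.9% called higher. Without D0 replicate 2 the changes were 2.93 for *Igfbp2* (adjusted *P* = 0.0080), 3.95 for *Igfbp6* (adjusted *P* = 0.000459) and 2.04 for *Igfbp7* (adjusted *P* = 0.0150). Without D0 replicate 1 that of *Igfbp2* was 5.99 (adjusted *P* = 0.000262), so its size rested on 2 unlike D0 libraries.

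Against W1, the W12 libraries were higher for *Igfbp2* by 6.51 (SE 0.85, adjusted *P* = 0.000546), for *Igfbp6* by 4.81 (SE 0.32, adjusted *P* = 2.40e-05) and for *Igfbp7* by 4.51 (SE 0.39, adjusted *P* = 8.16e-05). With *Igfbp3* higher and *Igf1r* lower, 5 of 7 members were called, beside 44.4% of all genes tested, 15.7% higher and 28.7% lower. Against W6, the 4 genes *Igfbp2*, *Igfbp3*, *Igfbp6* and *Igfbp7* were called higher of 7 members, beside 20.2% of all genes tested and 6.66% called higher. The changes were 2.94 for *Igfbp2* (SE 0.85, adjusted *P* = 0.0409), 2.15 for *Igfbp6* (SE 0.32, adjusted *P* = 0.00351) and 2.19 for *Igfbp7* (SE 0.39, adjusted *P* = 0.00722). Of these, *Igfbp6* kept its call whichever library was left out. That of *Igfbp2* was lost without W12 replicate 1 (adjusted *P* = 0.149), without W12 replicate 2 (adjusted *P* = 0.170) and without W6 replicate 1 (adjusted *P* = 0.180). It was also lost on leaving out any single W1 or W2 library (adjusted *P* between 0.0594 and 0.0645), with a pseudocount of 0.1 (0.0637), with robust eBayes (0.0658), with the replicate block (0.0608) and with no minimum level (0.138), in all 11 of 20 alternatives. That of *Igfbp3* was lost without W12 replicate 1 (adjusted *P* = 0.128) and without W12 replicate 2 (adjusted *P* = 0.0907), and also with only the libraries compared (0.0852) and with no minimum level (0.0862). That of *Igfbp7* was lost without W12 replicate 2 (adjusted *P* = 0.0504). The change of *Igfbp3* against W6 was 1.81 without W6 replicate 1 (adjusted *P* = 0.0151) and 5.11 without W6 replicate 2 (adjusted *P* = 0.000164).

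**Figure D2:**
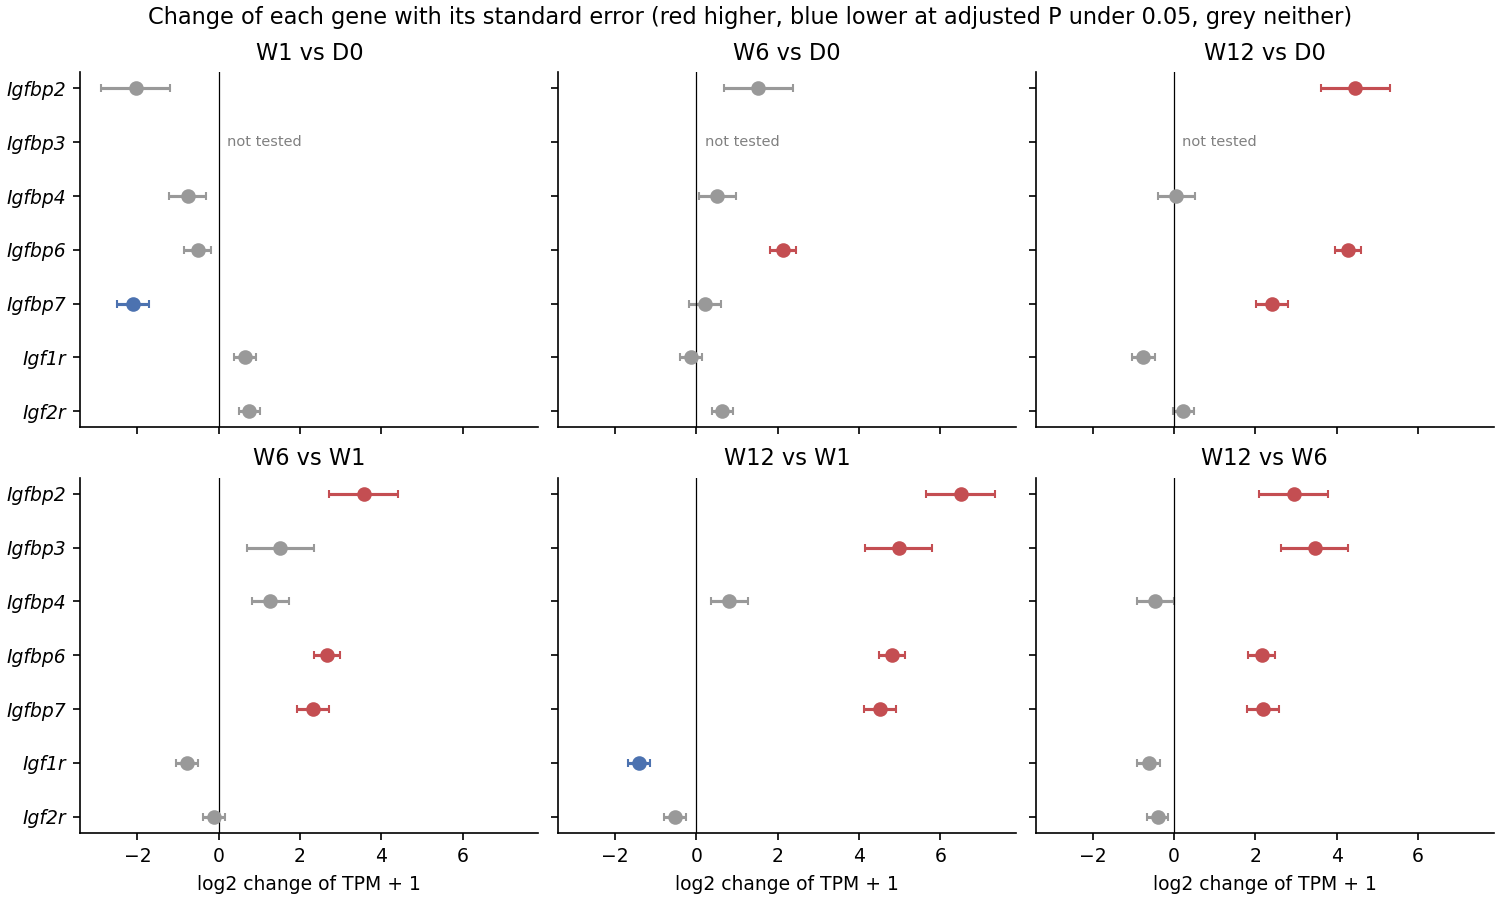
Log2 change of TPM + 1 (horizontal axis) with its standard error for the 7 genes that passed the minimum level, in 6 comparisons of timepoints with 2 libraries each. Red points are higher and blue points lower at an adjusted *P* under 0.05, grey points neither, and *Igfbp3* has no test against D0 because its D0 level chose the family. *Igfbp2*, *Igfbp6* and *Igfbp7* are red in all 4 panels that compare W12 with another timepoint or W6 with W1.

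The W12 libraries also held endothelial transcripts. *Pecam1*, which encodes the CD31 that the sort excluded, was at 0.137 and 0.0598 TPM at D0, 0.517 and 1.14 TPM at W6, and 26.1 and 59.8 TPM at W12. *Emcn*, a sialomucin of endothelium, was at 22.9 and 45.5 TPM at W12 and at or below 0.163 TPM before. Each of the 8 markers had both W12 libraries above all earlier ones, and *Cdh5*, the cadherin of endothelial junctions, was listed at 0 in every library up to W2. *Pecam1*, *Emcn*, *Tek* and *Vwf* reached the minimum level only through the W12 libraries, so no test of them is given. Between the 2 W12 libraries, the endothelial sum was 2.26-fold higher in replicate 2. Over the same pair of libraries the ratio was 1.80 for *Igfbp7*, 1.41 for *Igfbp2*, 1.09 for *Igfbp6* and 0.946 for *Igfbp3*. These ratios come from a single pair of libraries and have no spread. The 8 immune markers summed to 103.5 and 126.8 TPM at W12 and to at most 28.2 TPM before, nearly all of it *Cd74*, an antigen-presentation gene, at 102 and 124 TPM at W12. The other 7 were low and mixed. *Lyz2* of myeloid cells was at 0.171 and 0.957 TPM at W12 and at most 0.230 TPM before, and *Ptprc*, which encodes the CD45 that the sort excluded, was at 0.0184 and 0.327 TPM at W12 and at most 0.300 TPM before. *Cd3e* of T cells was at 0.0317 and 0.0370 TPM at W12 and at 0.209 TPM or more before, *Cd207* of Langerhans cells was listed at 0 and at 0.0356 TPM, and *Tyrobp*, an adaptor of myeloid cells, was at 1.17 and 1.21 TPM, within its range over D0 to W2. The 7 melanocyte markers summed to 13.5 and 11.8 TPM at W12, 5.25 and 12.9 TPM at W6 and between 2.03 and 7.21 TPM before. *Kit* among them, which encodes the CD117 that the sort excluded, was at 0.509 and 1.87 TPM at W12 and at most 0.243 TPM before. *Cd34*, whose product the sort also excluded, was at 2.66 and 5.04 TPM at W6 and 16.6 and 32.0 TPM at W12, and at most 0.383 TPM up to W2. The part of endothelial, immune or pigment cells, or of CD34-positive cells, in the W6 and W12 values was not tested.

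**Figure D3:**
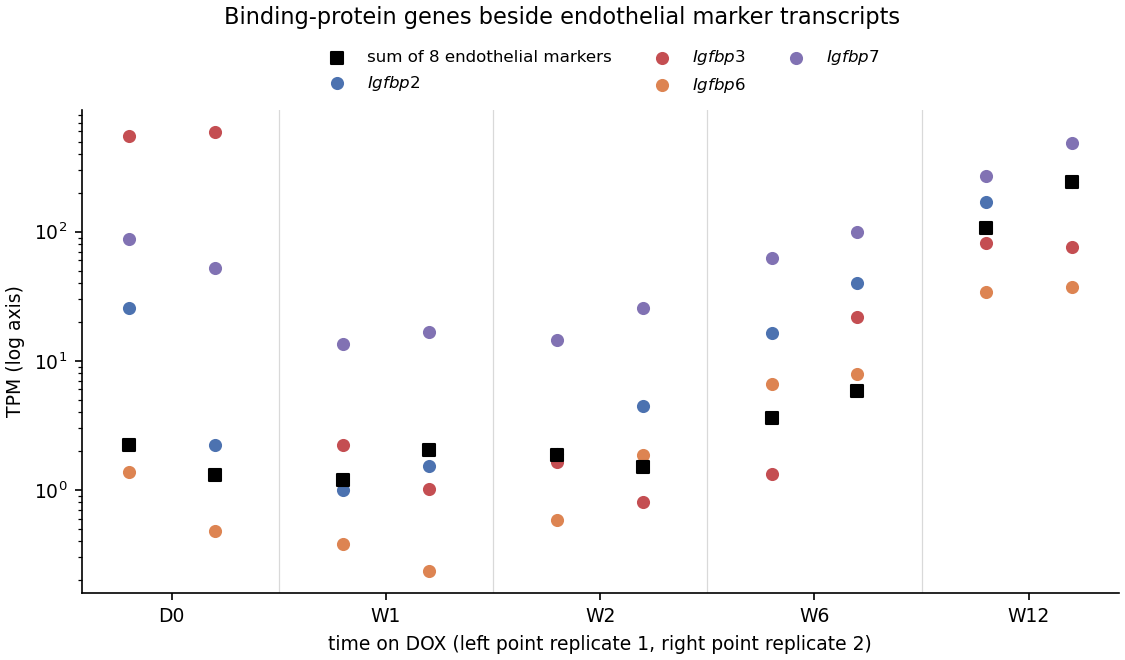
TPM on a log axis of *Igfbp2*, *Igfbp3*, *Igfbp6* and *Igfbp7* (coloured circles) and of the sum of 8 endothelial markers (black squares), by timepoint, with replicate 1 left and replicate 2 right. The endothelial sum is at or below 5.86 TPM up to W6 and at 106.9 and 242.1 TPM at W12. The sum, *Igfbp2*, *Igfbp6* and *Igfbp7* are all above their W1 level at W6.

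*Igfbp4* encodes a binding protein that mostly keeps IGF from its receptor and is cut by the protease PAPP-A. It was at 45.3 and 21.5 TPM at D0, 26.8 and 12.1 TPM at W1, 56.5 and 63.7 TPM at W2, 64.6 and 31.4 TPM at W6, and 29.8 and 35.2 TPM at W12. The W1 libraries overlapped D0, and the replicates lay close at W2 and W12 and further apart at D0, W1 and W6. None of its 6 comparisons passed. The largest change was 1.27 at W6 against W1 (SE 0.46, adjusted *P* = 0.0749), and at W12 against D0 it was 0.05 (SE 0.46, adjusted *P* = 0.943). *Igfbp5*, whose gene lies beside *Igfbp2*, was at 0.114 and 0.587 TPM at D0, was listed at 0 in both W1 libraries, and was at 0.0133 and 0.0380 TPM at W2, 0.0253 and 0.845 TPM at W6, and 0.764 and 1.56 TPM at W12. Its highest value in any library was thus 1.56 TPM, and it was fitted only when the minimum level was dropped. The change at W12 against W1 was then 1.09 (SE 0.33, adjusted *P* = 0.0777).

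Summed over the 6 binding-protein genes, the D0 libraries held 692 ± 26.9 TPM (SD, n = 2), the W1 libraries 37.7 ± 8.54, the W2 libraries 85.9 ± 15.2, the W6 libraries 176 ± 35.8 and the W12 libraries 734 ± 206. The D0 and W12 sums were of like size but of different genes. At D0, *Igfbp3* made up 77.5% and 88.5% of the sum in the 2 libraries. At W1, *Igfbp4* led in replicate 1 with 61.1% and *Igfbp7* in replicate 2 with 53.0%. At W2, *Igfbp4* held 75.2% and 65.9%. At W6 the lead again differed, with *Igfbp4* at 42.8% in replicate 1 and *Igfbp7* at 49.6% in replicate 2. At W12, *Igfbp7* held 46.1% and 55.4% and *Igfbp2* 29.1% and 27.4%, while *Igfbp3* held 13.8% and 8.73%. Since the D0 share of *Igfbp3* follows from the level that chose it, these shares are a description.

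**Figure D4:**
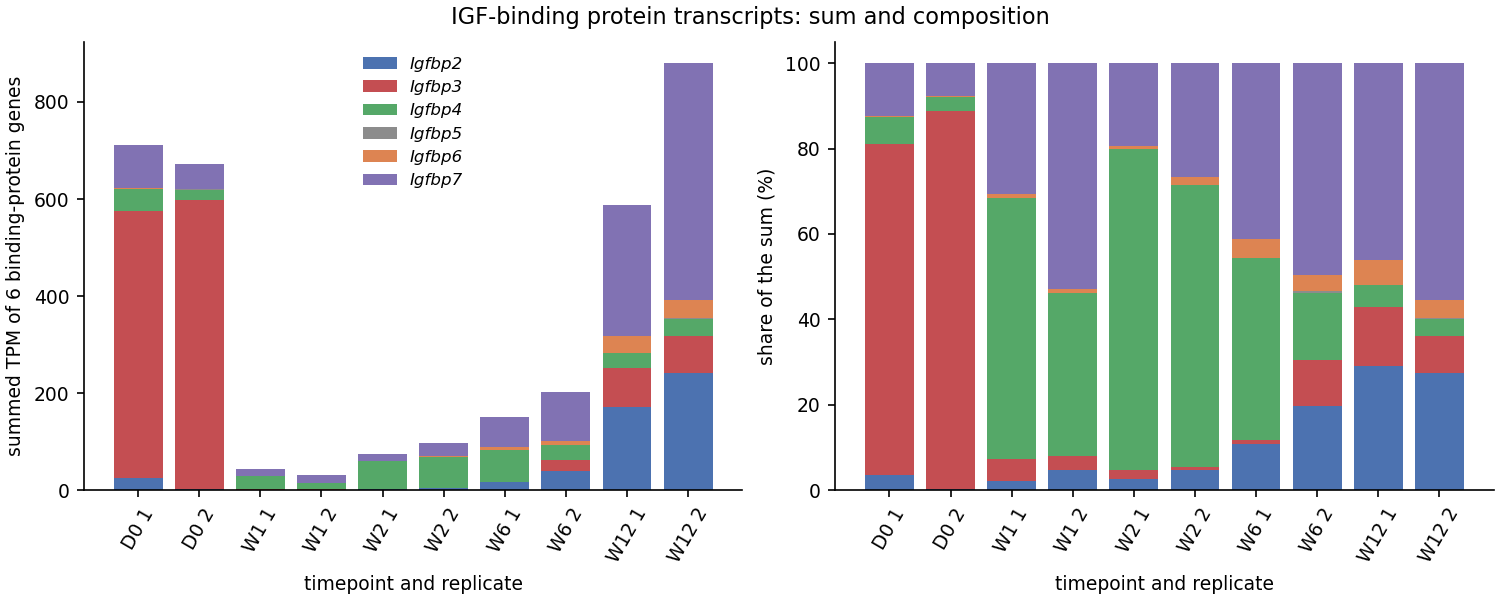
Left, summed TPM of the 6 binding-protein genes in each of the 10 libraries, stacked by gene. Right, the share of each gene in that sum in percent. *Igfbp3* fills 77.5% and 88.5% of the D0 bars and at most 13.8% of any later bar, and *Igfbp7* and *Igfbp2* fill most of the W12 bars.

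The receptors were at low levels in every library. *Igf1r*, the signalling receptor, was at 2.86 and 3.77 TPM at D0, 4.77 and 6.85 TPM at W1, 4.57 and 6.0 TPM at W2, 2.44 and 3.48 TPM at W6, and 1.99 and 1.2 TPM at W12. The W1 and W2 libraries lay above D0, W6 overlapped D0, and W12 lay below every other timepoint. *Igf1r* was lower at W12 than at W1 by 1.41 (log2 change −1.41, SE 0.27, adjusted *P* = 0.00367), a mean TPM 3.69-fold lower. No other comparison of *Igf1r* passed. Its change at W12 against D0 was −0.76 (SE 0.27, adjusted *P* = 0.0524), with the adjusted *P* between 0.0207 and 0.266 over 18 alternatives. It passed in 6 of them, without either W6 library (adjusted *P* = 0.0446 and 0.0442), with a pseudocount of 0.1 (0.0421), with median-ratio (0.0461) or quantile scaling (0.0207), and with eBayes without trend (0.0434). At W1 against D0 it was 0.65 (SE 0.27, adjusted *P* = 0.179). *Igf2r*, the scavenging receptor, was at 1.63 and 2.46 TPM at D0, 4.63 and 3.61 TPM at W1, 3.87 and 4.19 TPM at W2, 4.67 and 2.90 TPM at W6, and 2.17 and 2.95 TPM at W12. The W1, W2 and W6 libraries lay above D0 and the W12 libraries overlapped it. None of the 6 comparisons of *Igf2r* passed, the largest change being 0.76 at W1 against D0 (SE 0.26, adjusted *P* = 0.111). Without W6 replicate 2, *Igf2r* was higher at W6 than at D0 by 0.91 (adjusted *P* = 0.0435), against 0.64 (adjusted *P* = 0.0925) with it.

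The ratio of *Igf1r* to *Igf2r* was 1.75 and 1.53 in the D0 libraries. It was then 1.03 and 1.90 at W1, 1.18 and 1.43 a week later, 0.522 and 1.20 at W6, and 0.918 and 0.392 in the grafts. The W12 ratios were below those of D0, W1 and W2 and overlapped those of W6. The antisense *Airn*, named here after its values were seen because it overlaps *Igf2r*, was at 0.112 and 0.0221 TPM at D0 and reached 2.79 and 2.94 TPM by W12. *Polr2b*, which overlaps *Igfbp7*, stayed between 22.9 and 38.6 TPM in all 10 libraries, a range narrower than the 13.4 to 488 TPM of *Igfbp7*.

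The other genes of the pathway were taken from lists of 42 genes, of which 29 reached the minimum level. Neither ligand did. *Igf1* was at or below 0.326 TPM up to W6 and at 1.59 and 1.5 TPM at W12, and *Igf2* was between 0.0124 and 0.518 TPM throughout. *Igfals* reached it only through D0 and *Stc1* only through W12, so both are given below without a test, which left 27 genes to count. At W1 against D0, 0 of the 27 passed the limma test, 9 having an unadjusted *P* under 0.05, beside 4.10% of all genes tested called lower and 5.79% higher. At W6 against D0, 11 were lower and 1 higher, beside 14.1% and 18.3%. At W12 against D0, 17 were lower and 0 higher, beside 25.1% and 17.9%, with a median log2 change of −0.75 over the 27 and −0.08 over all genes tested. At W12 against W1, 19 were lower and 0 higher, beside 28.7% and 15.7%. At W6 against W1, 9 were lower and 0 higher, beside 12.3% and 10.6%, and at W12 against W6, 6 were lower and 0 higher, beside 13.5% and 6.66%. The last count fell to 2 lower of 27 under median-ratio scaling, where 6.42% of all genes were lower and 8.11% higher, and to 3 under quantile scaling. Median-ratio scaling also shifted the shares of all genes to 5.16% lower and 4.19% higher at W1 against D0, 17.8% and 14.6% at W6 against D0, and 24.3% and 21.2% at W12 against W1, where 16 pathway genes were lower and 1 higher.

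Among the relatives and partners of the binding proteins, *Igfals*, the acid-labile subunit that joins IGFBP3 and IGF in a circulating complex, was at 3.47 and 2.33 TPM at D0 and 0.173 and 0.280 TPM at W1, with at most 0.165 TPM at W2, 0.314 and 1.41 TPM at W6 and 1.11 and 1.60 TPM at W12. *Kazald1*, a secreted protein with an IGFBP domain, fell by 2.03 at W12 against D0 (log2 change −2.03, SE 0.31, adjusted *P* = 0.00131). Of the proteases and their regulators, *Htra1*, a secreted serine protease that cuts binding proteins, was at 389 and 445 TPM at D0 and between 366 and 457 TPM at W1 and W2. It was at 102 and 136 TPM at W6, a change of −1.81 against D0 (SE 0.17, adjusted *P* = 0.000192), and at 128 and 146 TPM at W12, a change of −1.60 (SE 0.17, adjusted *P* = 0.000182). *Stc1*, an inhibitor of PAPP-A, was at 0.211 and 0.0565 TPM at D0 and reached 3.94 and 7.62 TPM by W12.

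The insulin receptor gene *Insr*, whose product can pair with the IGF1 receptor, was at 7.49 and 8.58 TPM at D0, 12.7 and 12.8 TPM at W1, 12.1 and 12.5 TPM at W2, 7.29 and 6.98 TPM at W6, and 6.11 and 9.60 TPM at W12. Its level exceeded that of *Igf1r* in each of the 10 libraries, in TPM, which account for transcript length. *Insr* was lower at W6 than at W1 by 0.76 (log2 change −0.76, SE 0.21, adjusted *P* = 0.0340) and lower at W12 than at W1 (log2 change −0.66, SE 0.21, adjusted *P* = 0.0310), the latter a call lost under median-ratio and quantile scaling.

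Of the 5 receptor substrates and adaptors tested, 4 were lower at W12 than at D0 and 0 higher, beside 25.1% and 17.9% of all genes tested. *Irs2*, the docking protein of the activated receptor, was at 31.9 and 64.2 TPM at D0 but only 7.90 and 10.7 TPM in the W12 libraries, a change of −2.18 (SE 0.36, adjusted *P* = 0.00181). *Gab1*, a scaffold that recruits PI3K, changed by −1.68 (SE 0.22, adjusted *P* = 0.000613), and *Grb2* and *Sos1*, which link receptors to RAS, were also called lower. Of the 18 genes of the PI3K–AKT–mTOR arm tested, 11 were lower and 0 higher at W12 against D0, beside the same shares. Under median-ratio scaling 10 were lower and 0 higher, and under quantile scaling 9 were lower and 1 higher. These counts were not repeated with a library left out. The 11 included the kinase *Akt2* (−1.31, SE 0.17, adjusted *P* = 0.000665) and the regulatory subunit *Pik3r2* (−1.50, SE 0.22, adjusted *P* = 0.00108). The 11 were not all of 1 sign of action, since *Tsc1* and *Tsc2*, which restrain the pathway, and *Foxo1*, a transcription factor that AKT restrains (−1.91, SE 0.28, adjusted *P* = 0.00113), were among them. At W6 against D0, 5 were lower, beside 14.1% of all genes tested, and *Mtor*, the growth kinase, was higher by 0.65 (SE 0.21, adjusted *P* = 0.0450), a call lost under median-ratio scaling.

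**Figure D5:**
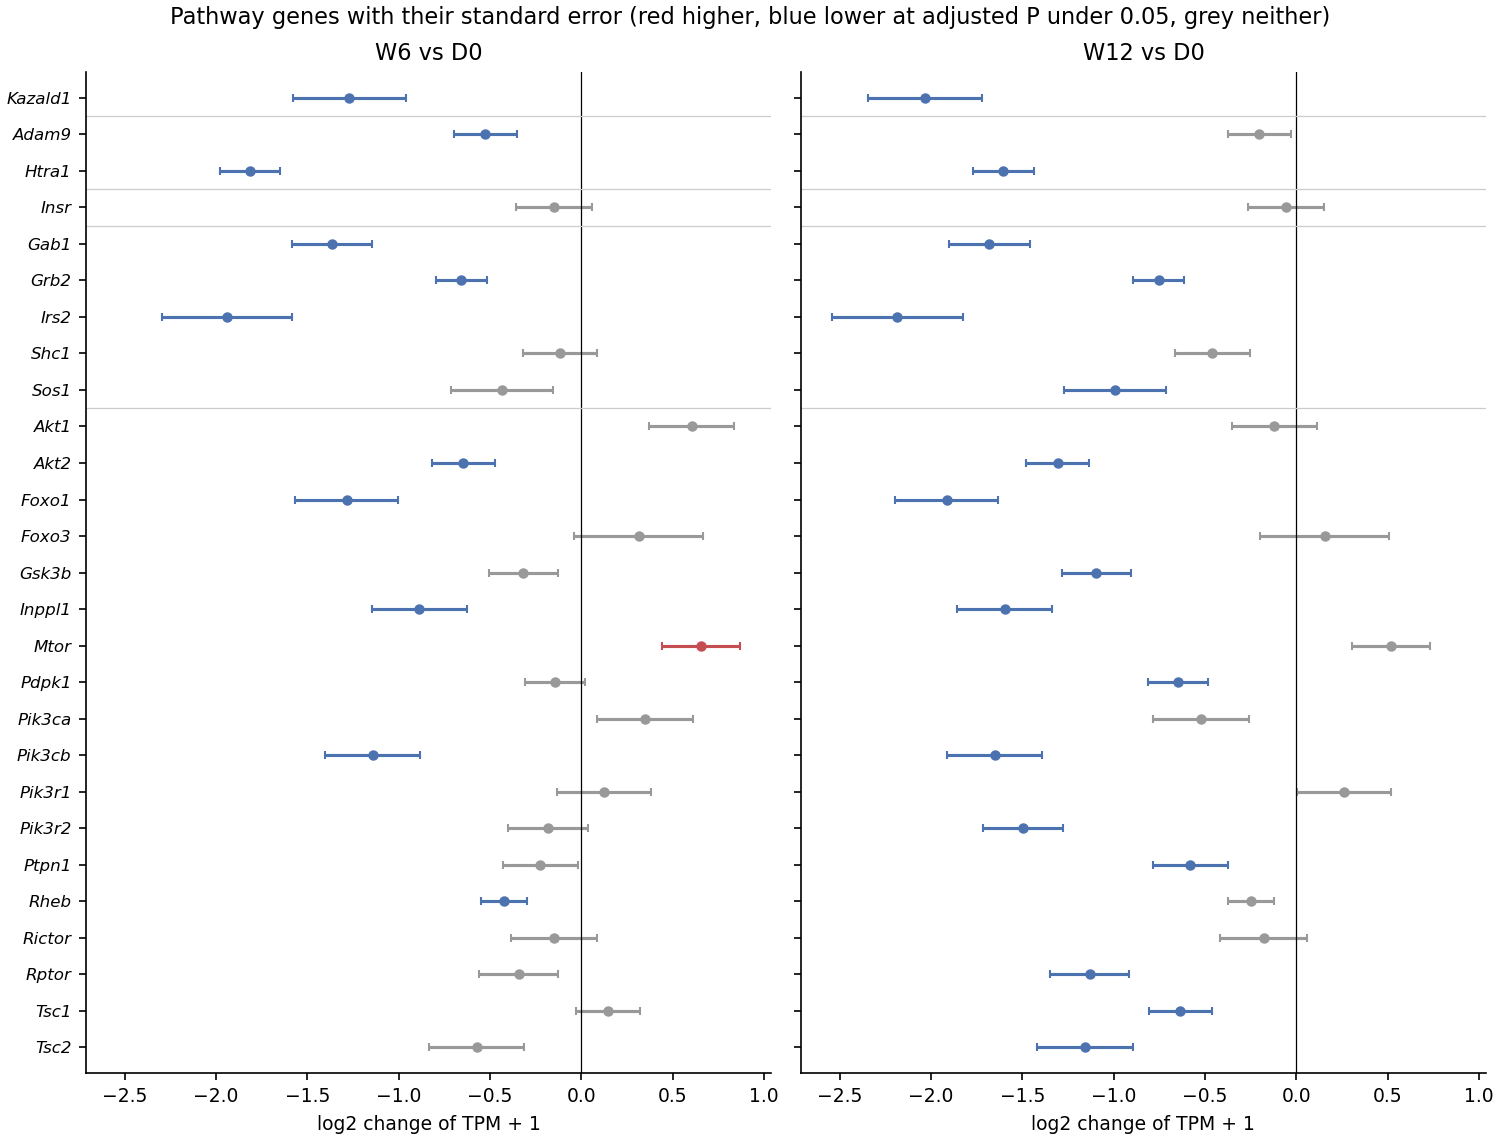
Log2 change of TPM + 1 (horizontal axis) with its standard error for the 27 pathway genes counted, at W6 and at W12 against D0, in blocks divided by grey lines for relatives of the binding proteins, proteases and regulators, the insulin receptor, substrates and adaptors, and the PI3K–AKT–mTOR arm. Blue points are lower and red points higher at an adjusted *P* under 0.05. At W12, 17 genes are blue and 0 are red.

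The genes whose levels followed each member most closely were ranked by Pearson's *r* of log2(TPM + 1) over the 10 libraries, which share timepoints and are not independent. For *Igfbp3* the 10 include the D0 and W2 values that chose the family, so its *r* only describes that course. For *Igfbp3* they were *Gdpd2* (*r* = 0.986), *Gm5127* (0.979) and *Cysltr1* (0.972). *Gdpd2* was at 106 and 76.7 TPM at D0, between 3.92 and 5.51 TPM in the W1 and W2 libraries, at 5.39 and 24.2 TPM at W6, and at 40.5 and 33.7 TPM at W12. Its W6 libraries also lay apart, and its W12 libraries lay between those of D0 and W1. For *Igfbp6* they were *Cstdc6* (0.990), *2610528A11Rik* (0.985) and *Dnmt3l* (0.984), for *Igfbp2* *Zswim7* (0.985), *Cisd3* (0.979) and *Gnat1* (0.979), and for *Igfbp7* *Ldhd* (0.974), *Mrpl1* (0.974) and *Sprr2a3* (0.973). *Cstdc6* and *Sprr2a3* belong to families of near-identical copies, among which reads may be split. *Igf1r* was closest to *Zfp12* (0.970), *Igf2r* to *Efhd2* (0.962) and *Igfbp4* to *4833438C02Rik* (0.890). Between members, *r* was 0.961 for *Igfbp2* and *Igfbp7*, 0.949 for *Igfbp2* and *Igfbp6*, and 0.902 for *Igfbp6* and *Igfbp7*, and *Igf1r* ran opposite to *Igfbp7* (−0.909).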

How the data were processed

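The authors deposited TPM per gene for the time course, made by trimming with Skewer, quantifying with Salmon 1.4.0 against GENCODE M24 (GRCm38) plus the transgene, and summing to genes with Tximport 1.12.3. TPM carry no depth, so no counting error is given. Libraries were grouped by their labels. The 13110 genes whose mean reached 1 TPM were tested on log2(TPM + 1), which understates changes of low genes. limma 3.58.1 in R 4.3.3 fitted 5 timepoint means over 10 libraries (eBayes with trend), with two-sided *P* values adjusted by Benjamini–Hochberg over all 13110 genes and a threshold of 0.05. TPM permit no count test, such as the DESeq2 test that the authors used on counts. *P* values rest on the spread between the 2 labelled biological replicates, pooled over all 5 timepoints and moderated by eBayes. They thus do not rest only on the replicates of the timepoints compared.

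All 8 genes, the genes of the lists and, for each member, the 3 genes of highest *r* may be named. Members and lists were chosen with earlier results of these data known. A single gene of the pathway lists was left out of the values and counts and is not reported here. Promoters are RefSeq's on GRCm38.p6, and gene positions are those of GENCODE M21. The authors' table of the 4 placode libraries holds only their own comparison (means, log2 fold changes, *P* values) and was not used here. Python 3.11.15 with pandas 2.3.3 made the summaries.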

Additional observations from a re-analysis of the deposited data

How the results depend on the processing

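The alternatives were a pseudocount of 0.1, no minimum level, a minimum mean of 5 TPM, median-ratio or quantile scaling, eBayes without trend or robust, only the libraries compared, no W12 libraries, the replicate block and each library left out. Over 39 changes of single members and 766 alternatives, 721 kept direction and side of the threshold, 23 lost the call, 10 gained it and 12 reversed, all of the last among changes that had not passed. Median-ratio scaling moved the median log2 change of all genes from −0.15 to −0.04 at W12 against W1, from −0.16 to −0.02 at W12 against W6 and from 0.08 to −0.05 at W6 against D0. It reversed no member. Depth is unknown, so what it limits cannot be given.

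With no minimum level, the members called went from 1 to 0 at W1 against D0, from 3 to 2 at W6 against W1 and from 4 to 2 at W12 against W6. Leaving out 1 library gave 0 to 2 called members at W1 against D0, 1 to 2 at W6 against D0, 3 to 4 at W12 against D0, 2 to 4 at W6 against W1, 5 in every case at W12 against W1 and 1 to 4 at W12 against W6. In the last, 2 members remained called without W12 replicate 1 and 1 without W12 replicate 2. The cause was not tested.

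Reversals came from leaving out 1 library, which gave log2 changes of *Igfbp4* from −0.47 to 0.57 at W12 against D0, from −0.97 to 0.043 at W12 against W6 and from −0.0047 to 1.03 at W6 against D0. *Igf1r* ranged from −0.32 to 0.063, *Igfbp2* from −0.011 to 3.05 and *Igfbp7* from −0.15 to 0.58 at W6 against D0. At W6 against W1, *Igf2r* ranged from −0.39 to 0.15 and *Igfbp3* from −0.13 to 3.16.

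The number of all genes called fell from 1296 to 606 at W1 against D0 and from 3003 to 1829 at W6 against W1 with no minimum level. With only the libraries compared it was 659 at W1 against D0, 1339 of 4251 at W6 against D0, 1916 at W6 against W1 and 1065 of 2642 at W12 against W6. Leaving out 1 library gave 376 to 1765 genes at W1 against D0, 2348 to 5037 at W6 against D0, 3285 to 6291 at W12 against D0, 856 to 3938 at W6 against W1, 3584 to 6503 at W12 against W1 and 695 to 3237 at W12 against W6.

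Replicate numbers did not pair the samples, since same-numbered libraries had correlations of deviations between −0.129 and 0.182. With the replicate block, 3 members rather than 4 were called at W12 against W6, *Igfbp2* having an adjusted *P* of 0.0608, and the counts at the other comparisons were as without it. With crossed numbers, tried after the data had been seen where that correlation was under −0.1, 1 member was called at W1 against D0, 1 at W6 against D0 and 4 at W12 against W6.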

Other observations

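The CCN proteins, matrix proteins that share the N-terminal IGFBP-like domain, had 6 genes in the table and 2 at a testable level, which moved in opposite directions. *Ccn1* was at 2805 and 4956 TPM at D0, 399 and 147 TPM at W1, 518 and 244 TPM at W2, 133 and 222 TPM at W6, and 157 and 252 TPM at W12. It fell by 3.94 at W1 (log2 change −3.94, SE 0.54, limma adjusted *P* = 0.00296) and was lower at W6 and W12 as well. *Ccn1* is an immediate-early gene, and the 10 immediate-early and stress genes summed to 28102 and 44134 TPM at D0 and at most 11992 TPM later. *Ccn2* was at 7.27 and 15.3 TPM at D0, 248 and 307 TPM at W1, 385 and 226 TPM at W2, 87.6 and 96.9 TPM at W6, and 45.0 and 52.1 TPM at W12. It rose by 4.58 at W1 (SE 0.33, adjusted *P* = 0.000195) and stayed higher than D0 at W6 (3.0) and W12 (2.09).

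*Igfl3*, of the IGF-like family, was added after its values were seen. It was at 2.01 and 0.170 TPM at D0, 11.8 and 5.97 TPM at W1, 51.0 and 57.3 TPM at W2, 624 and 338 TPM at W6, and 92.2 and 71.1 TPM at W12. It was highest in the W6 libraries, and no test is given because it was chosen for its values. Of the 3 IGF2 mRNA-binding protein genes, only *Igf2bp3*, a regulator of mRNA, was at a testable level. It was at 4.68 and 0.0918 TPM at D0, 3.98 and 4.58 TPM at W1, 1.51 and 2.03 TPM at W2, 0.0538 and 0.439 TPM at W6, and 0.105 and 0.0415 TPM at W12. It was lower at W6 than at W1 (log2 change −2.10, SE 0.62, adjusted *P* = 0.0420) and at W12 than at W1 (−2.30, SE 0.62, adjusted *P* = 0.0161).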
